A study of Mus musculus with 20 samples.

Results

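Gad1, Gad2, Slc32a1 and Slc6a9, the 4 genes described here of the 23260 in the deposited count table, were chosen by name because they mark neurons that release GABA or glycine. The cells, 79009 in 20 libraries, came from retina explants of wildtype CD1 mice kept in culture. Per the labels, explants of postnatal day 2 (P2) or postnatal day 5 (P5) received by electroporation the GFP control, MEIS1, MEIS2 or a 50:50 mixture of the 2 MEIS constructs, called the combination here. Each age had 4 control libraries and 2 libraries of each of the 3 MEIS groups. All constructs, the empty control included, are in the pCAGIG vector, whose CAG promoter is active in most cell types and which also encodes GFP, and only GFP-positive cells were collected. MEIS1 and MEIS2 are homeodomain transcription factors. The comparisons asked how transmitter genes differ between the retinal cell types, between the 2 ages in controls, and between MEIS and control constructs.

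Amacrine cells are the inhibitory interneurons of the inner retina, and most of them release either GABA or glycine. Gad1 and Gad2 encode the glutamate decarboxylases GAD67 and GAD65, which make GABA. Slc32a1 encodes the vesicular transporter VGAT, which loads both GABA and glycine into synaptic vesicles, and Slc6a9 encodes the plasma membrane glycine transporter GlyT1, which marks glycinergic amacrine cells in the retina. Horizontal cells and starburst amacrine cells, which also release acetylcholine, are other GABAergic cells of the retina.

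In the GENCODE vM21 annotation of mm10, all 4 are protein-coding genes on the plus strand: Gad1 (ENSMUSG00000070880.10) at chr2:70553072-70602014, Gad2 (ENSMUSG00000026787.3) at chr2:22622205-22693874, Slc32a1 (ENSMUSG00000037771.11) at chr2:158610767-158615748 and Slc6a9 (ENSMUSG00000028542.17) at chr4:117834506-117875198. The files give symbols alone, so these identifiers were matched by symbol. The start regions of the 2 decarboxylase genes are shown because cell types and amacrine clusters differed in which of the pair they held. Both are 300-base windows from RefSeq on GRCm38.p6, plus strand, with 250 bases before the transcription start; the Gad1 window is chr2:70561879-70562178 and the Gad2 window is chr2:22622077-22622376. Capitals mark the E-box CACCTG, a sequence that basic helix-loop-helix factors can bind.
Gad1: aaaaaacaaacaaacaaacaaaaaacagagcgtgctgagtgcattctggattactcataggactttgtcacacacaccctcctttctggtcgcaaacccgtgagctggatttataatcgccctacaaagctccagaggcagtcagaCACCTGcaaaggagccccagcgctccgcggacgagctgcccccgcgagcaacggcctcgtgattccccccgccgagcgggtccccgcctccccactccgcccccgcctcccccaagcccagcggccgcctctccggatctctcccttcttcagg
Gad2: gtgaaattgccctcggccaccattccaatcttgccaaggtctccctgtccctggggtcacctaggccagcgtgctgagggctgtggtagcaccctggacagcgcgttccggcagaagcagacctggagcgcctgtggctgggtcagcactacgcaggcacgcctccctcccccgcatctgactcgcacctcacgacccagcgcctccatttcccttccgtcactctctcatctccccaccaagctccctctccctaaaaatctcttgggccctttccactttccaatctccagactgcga
The search covered both strands of 6 windows, 1 each for Gad1, Gad2 and Slc32a1 and 3 for Slc6a9. CACCTG lay in the Gad1 window, at base -104 from the start, and in the Slc32a1 window, at base -233. It is held by 20.2% of all 32851 RefSeq start windows of the same length. The letters TGACAG, the core that MEIS factors bind, were in 0 of the 6 windows and in 19.2% of all windows. These are matches of letters and carry no measurement of binding.

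Several labels disagree with each other. Where the design text of the series has NR2F1 and NR2F2, titles and treatments have MEIS. That text also gives 2 or 5 days as a length of treatment, not an age. The treatment tag gives MEIS1 for every P2 library with a single construct and MEIS2 for every such P5 library, so titles decided the construct. Cell names start with the library's own title in 10 of 20 libraries. In 2 of the others the start names another group: P2 control 1 starts as a combination library and P2 combination 2 as a control. Nothing in the labels says whether libraries came from separate animals or cultures, so p-values here measure the spread between libraries, which may be technical.

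The libraries held 2376875 to 141540352 UMIs (unique molecular identifiers, each counting 1 RNA molecule), and 62 to 6115 cells that the authors named Amacrine Cells, 13556 in all. P2 MEIS2 2 stood apart: its amacrine cells had a median of 1092 UMIs, against up to 17719 elsewhere, and Malat1 took 10.0% of its UMIs. There were 744 cell barcodes shared between libraries, which covered 265 amacrine cells. Of 8 amacrine marker genes 6 were highest in the authors' amacrine cells, and 8 of 8 starburst markers were highest in their starburst cells. Horizontal markers were highest in horizontal cells in 4 of 7 cases. The 55 cells that the authors named Horizontal Cells also held markers of other types: 6 of 7 ganglion cell markers were highest in them, with a sum of 1182 CPM against at most 46.4 in any other type, and the 8 amacrine markers summed to 1613 CPM, and values of horizontal cells below are those of these 55 cells.

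Gad2 and Slc32a1 marked amacrine cells most clearly among the abundant cell types, Gad1 was highest in starburst cells, and Slc6a9 was found in rods as well as in amacrine cells. UMIs were read at the 3′ end of each RNA and were not scaled by gene length, so levels are compared here within a gene and not between genes. Pooled over libraries, Gad2 stood at 573.5 counts per 1000000 UMIs (CPM) in amacrine cells, 109 in horizontal cells and between 7.25 and 29.8 in every other type except starburst cells, where it was 15.5. Gad1 stood at 242 CPM in the 98 starburst cells, 45.0 in the 55 horizontal cells, 37.9 in amacrine cells and at most 5.08 elsewhere. Slc32a1 stood at 114 CPM in starburst cells, 87.1 in amacrine cells and 59.2 in horizontal cells, with at most 4.01 elsewhere. P2 control 1 gave 50317436 of the 108170394 pooled amacrine UMIs. Averaged over libraries instead, amacrine cells had 443 ± 291 CPM of Gad2, 52.7 ± 53.8 of Gad1 and 107 ± 118 of Slc32a1 (SD over 20 libraries). The starburst and horizontal values rest on few cells: 2 libraries had 20 or more starburst cells, with Gad1 at 226 and 273 CPM, and no library had 20 horizontal cells.

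**Figure D1:**
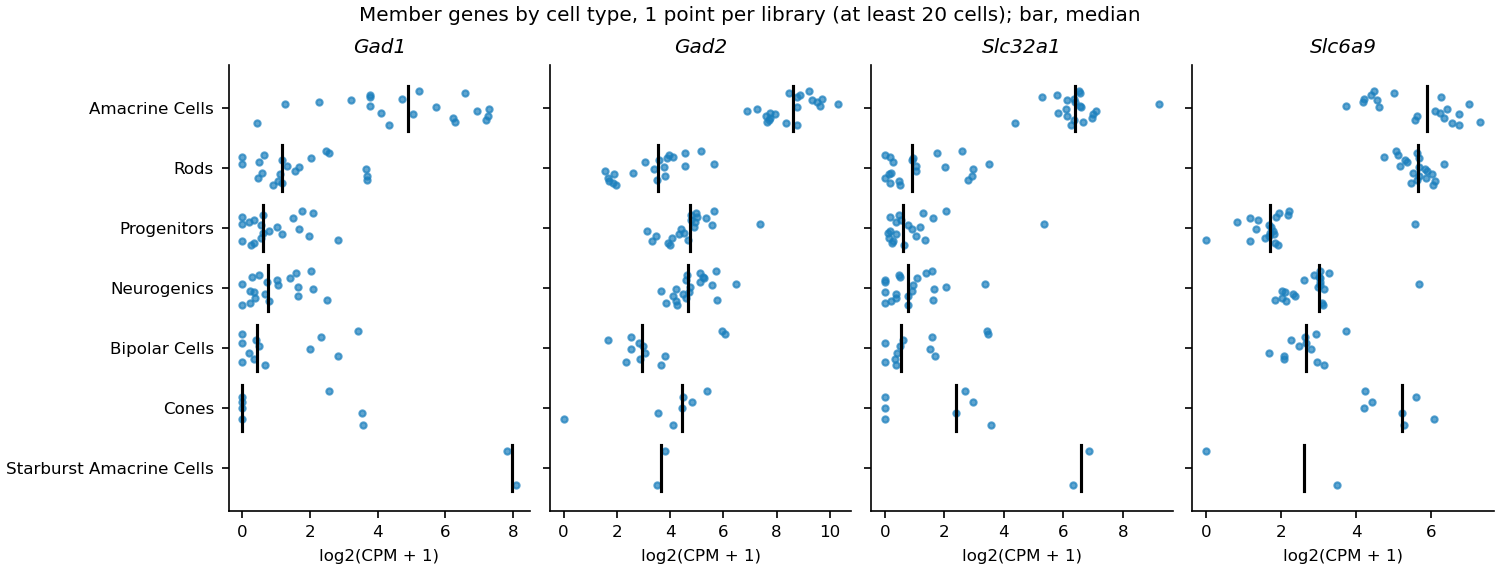
Levels of the 4 genes by the authors' cell type, as log2(CPM + 1), with 1 point per library in which 20 cells or more had that type, and a bar at the median. Gad2 points of amacrine cells, which run from 119 to 1249 CPM, lie to the right of most other types, while Slc6a9 points of rods (25.8 to 79.9 CPM) lie inside the wider span of amacrine cells (12.3 to 156 CPM).

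Slc6a9 departed from the other 3 genes in photoreceptors. It stood at 45.4 CPM in rods (49.2 ± 13.5, SD over 20 libraries), 29.7 in cones and 32.8 in amacrine cells (61.5 ± 41.9, SD over 20 libraries), but at 2.63 in progenitors, 6.10 in neurogenic cells and 4.59 in bipolar cells. Every cell was then thinned to 2000 UMIs, which sets cells to 1 depth and leaves out shallower cells. With cells pooled, a Slc6a9 UMI was found in 8.81% of 32149 rods (95% Wilson interval 8.50 to 9.12%) and in 5.65% of 12449 amacrine cells (5.26 to 6.07%), of which 5834 came from P2 control 1. By library the order went with age: rods were higher in 9 of 10 P2 libraries and amacrine cells in 7 of 10 P5 libraries. In P2 controls the means were 6.49 ± 1.21% of rods and 6.06 ± 3.71% of amacrine cells, and in P5 controls 10.4 ± 2.04 and 12.8 ± 2.33% (SD, n = 4 each). Unthinned levels had the same split, with rods higher in 8 of 10 P2 libraries and amacrine cells in 8 of 10 P5 libraries. In P5 controls the CPM ranges of the 2 types did not overlap (44.9 to 63.8 in rods, 67.6 to 105 in amacrine cells), and in P2 controls they did (25.8 to 47.7 and 20.1 to 75.8). Progenitors, which are not glycinergic, gave 0.559% (0.437 to 0.715%) at a median of 12171.5 UMIs before thinning, against 6517 in amacrine cells and 4650.5 in rods. A Slc6a9 UMI was thus found less often in progenitors than in rods or amacrine cells. Intervals cover counting error only.

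After thinning, Gad2 was found most often in amacrine cells, Gad1 in starburst cells and Slc32a1 in the 49 horizontal cells that were deep enough. Gad2 was found in 54.3% of amacrine cells, 22.4% of horizontal cells, 6.12% of progenitors, 5.81% of neurogenic cells and 2.74% of rods. Before thinning the Gad2 shares were 75.5% of amacrine cells and 23.7% of progenitors. Gad1 was found in 37.5% of starburst cells (36 of 96), 10.2% of horizontal cells, 8.54% of amacrine cells and at most 0.865% of photoreceptors, progenitors, neurogenic and bipolar cells. Slc32a1 was found in 18.4% of horizontal cells (9 of 49, Wilson interval 9.98 to 31.4%), 16.1% of amacrine cells, 15.6% of starburst cells and at most 1.15% of those other types. Starburst cells held Gad2 in 2 of 96 cells (2.08%, Wilson interval 0.573 to 7.28%), far below the other amacrine cells and below the pooled share of progenitors.

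The authors' clusters of amacrine cells divided Gad1 from Slc6a9. The names of clusters are numbers in the deposited file: 7100 amacrine cells lay in clusters 6 and 13 and 6456 in clusters 7, 9 and 17. Clusters 6 and 13 were rich in the transcription factor genes Tcf4, Ebf1, Ebf3, Neurod2, Ptf1a and Prdm13, and clusters 7, 9 and 17 in Meis2. Meis2 stood at 651 CPM in the first set and 3229 in the second, and Tcf4 at 1842 and 377. These levels pool all 20 libraries, those that received MEIS2 included, and the part of construct RNA in the Meis2 levels was not tested. Because clusters come from the same counts and were put into these 2 sets after their values had been seen, the values that follow are a description.

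Gad1 stood at 2.37 CPM in clusters 6 and 13 and at 88.7 in clusters 7, 9 and 17, and pooled over libraries it was 190 CPM in cluster 9. It was higher in the second set in 18 of the 18 libraries in which both sets could be compared. Slc6a9 ran the other way, with 50.0 CPM in clusters 6 and 13 and 8.26 in clusters 7, 9 and 17, and was higher in the first set in 18 of 18 libraries. Gad2 crossed the division: it stood at 635 and 486 CPM, and was higher in clusters 6 and 13 in 10 of 10 P2 libraries but in 3 of 8 P5 libraries. Both P5 controls compared lay the other way, at 120 and 88.2 CPM in clusters 6 and 13 and 170 and 147 in clusters 7, 9 and 17. Slc32a1, the transporter that both transmitters use, stood at 71.8 and 109 CPM and was higher in clusters 7, 9 and 17 in 17 of 18.

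**Figure D2:**
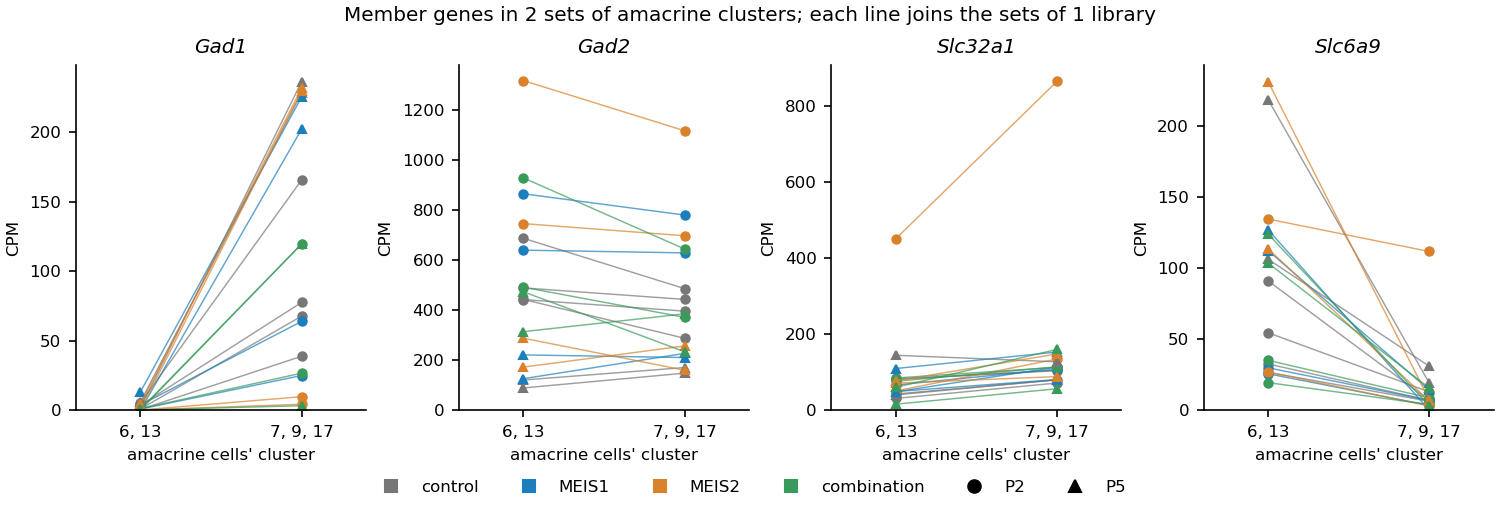
CPM of the 4 genes in 2 sets of the authors' amacrine clusters; each line joins the 2 sets of 1 library, colours are constructs, circles are P2 and triangles P5. Every Gad1 line rises towards clusters 7, 9 and 17 and every Slc6a9 line falls, while Gad2 lines fall in 10 of 10 P2 libraries and in 3 of 8 P5 libraries; the line at the top of the Slc32a1 panel is P2 MEIS2 2.

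Single amacrine cells showed the same division. Of 703 thinned amacrine cells with a Slc6a9 UMI, 15 (2.13%) also had a Gad1 UMI, against 8.92% of the cells without Slc6a9. A Gad2 UMI was found in 342 (48.6%) of the Slc6a9 cells and in 54.6% of the others, with both ages pooled. Over 20 libraries the log2 odds ratio of finding Gad1 and Slc6a9 in the same cell was above 0 in 5, with a median of -1.22. For Gad2 and Slc6a9 it was above 0 in 12, with a median of 0.12.

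Gad1 and Gad2 also tended to be found in different cells, though not in every library. Of 1063 cells with Gad1, 395 (37.2%) had Gad2, against 54.3% of all thinned amacrine cells. These percents pool the 2 ages, between which both genes differed. In P2 and P5 controls, Gad2 was found in 53.7 and 25.8% of amacrine cells and Gad1 in 7.18 and 12.9%. The mixing of ages can therefore lower the pooled percent. Within single libraries the log2 odds ratio was above 0 in 7 of 20 (median -0.46). Gad2 and Slc32a1 were the pair found together most often: their odds ratio was above 0 in 17 of 20 libraries, with a median of 0.59. Gad1 with Slc32a1 was above 0 in 12 libraries and Slc32a1 with Slc6a9 in 9. Cells of 1 library share its depth and free RNA, so these ratios are given without a test.

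Each thinned amacrine cell was then called GABAergic if it held a UMI of Gad1 or Gad2 and none of Slc6a9, glycinergic if it held Slc6a9 and neither decarboxylase, both, or neither. Of 12449 pooled cells, 7077 (56.8%) were GABAergic, 353 (2.84%) glycinergic, 350 (2.81%) both and 4669 (37.5%) neither. P2 control 1 gave 5834 of these cells. Averaged over the 20 libraries, the percents were 46.4% GABAergic, 5.99% glycinergic, 4.22% both and 43.4% neither. The names describe UMIs found at 2000 UMIs per cell and not transmitter release. Clusters 6 and 13 held 85.0% of the glycinergic cells and 88% of the cells with both, but 50.2% of the GABAergic cells.

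In control libraries the GABAergic part of the cells called GABAergic or glycinergic was smaller at P5 than at P2. GABAergic cells as a percent of GABAergic plus glycinergic cells were 97.6, 96.4, 96.8 and 89.4% in P2 controls 1 to 4, and 80.4, 81.0, 80.0 and 69.7% in P5 controls 1 to 4. The 2 ages did not overlap, and control 4 was lowest at each age. The means were 95.05 ± 3.797% and 77.8 ± 5.40%, a difference of -17.3 percentage points (SD, n = 4 each; two-sided exact permutation test over libraries, p = 0.0286, the smallest that 4 against 4 allows). Adjusted over the 20 tests of class shares, that p was 0.143 (Benjamini-Hochberg, exact permutation), which does not pass 0.05.

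Both sides of the ratio differed between the ages. The GABAergic percent of all thinned amacrine cells averaged 54.7% at P2 and 31.5% at P5, the glycinergic percent 2.85% and 8.92%, and the percent with neither 39.2% and 55.7%, each without overlap between the 4 and 4 libraries (exact permutation p = 0.0286 each, adjusted p = 0.143). The percent with both was 3.22% and 3.90% (exact permutation p = 0.543). On the GABAergic side the difference lay in Gad2: a Gad2 UMI was found in 53.7 ± 5.76% of P2 and 25.8 ± 5.81% of P5 control amacrine cells (SD, n = 4 each). Gad1, by contrast, was found in 7.18 ± 6.08% and 12.9 ± 11.3%. With Gad1 alone as the GABAergic gene, the share was 49.6 ± 26.7% at P2 and 42.7 ± 29.3% at P5, a difference of -6.85 points (exact permutation p = 0.543), which is within the spread between libraries.

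**Figure D3:**
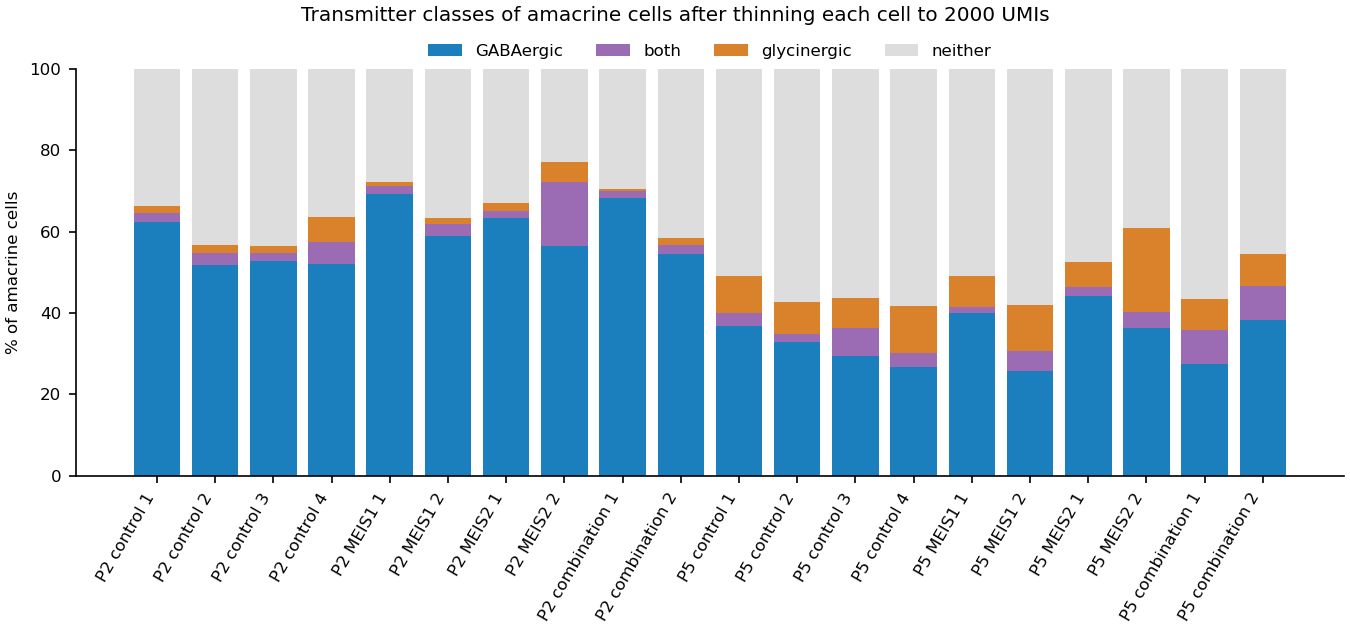
Percent of amacrine cells in each transmitter class in the 20 libraries after thinning each cell to 2000 UMIs; bars start at 0 and add up to 100. The GABAergic part is 51.7 to 62.3% in P2 controls and 26.7 to 36.8% in P5 controls, and the glycinergic part 1.54 to 6.18% and 7.38 to 11.6%.

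Other measures differed between the ages beside this share. The authors' amacrine cells made up 9.53 to 34.5% of cells in P2 controls and 2.71 to 13.8% in P5 controls. Slc6a9 was also found more often in rods at P5, in 10.4 ± 2.04% against 6.49 ± 1.21% of thinned control rods, and the summed level of 8 rod markers in control amacrine cells was 433 to 565 CPM at P2 and 475 to 2200 at P5, against 7317 in rods. The 8 starburst markers summed to 15.5 to 36.5 CPM in amacrine cells of P2 controls and 65.0 to 169 CPM in those of P5 controls, without overlap, against 3521 in starburst cells. The 8 amacrine markers summed to 2046 to 2673 CPM and 1297 to 2219 CPM in the same cells, with overlap. The part of rod RNA, of starburst RNA or of the lower amacrine markers in the share was not tested. Clusters 7, 9 and 17 made up 25.3 to 57.5% of amacrine cells in P2 controls and 9.03 to 68.4% in P5 controls, and the ranges of the 2 ages overlapped.

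Within clusters 6 and 13 alone, an alternative chosen after seeing the data, the GABAergic share was 92.8 ± 4.40% in the 4 P2 controls. It was 35.4, 44.4, 77.6 and 65.2% in P5 controls 1 to 4, a difference of -37.1 points (exact permutation p = 0.0286). Within clusters 7, 9 and 17 it was 98.1 to 99.4% in the 4 P2 controls and 94.4 and 97.5% in the 2 P5 controls that had enough cells, again without overlap, a difference of -2.78 points (exact permutation p = 0.0667, the smallest possible). These clusters held 53 glycinergic and 3524 GABAergic cells over all libraries, so their share lay close to its upper end at both ages. Whether the age difference was the same in both sets of clusters was not tested.

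Summed amacrine counts gave the same direction for Gad2. It was 598, 356, 474 and 433 CPM in P2 controls 1 to 4 and 153, 119, 217 and 246 CPM in P5 controls 1 to 4, again with no overlap. In the quasi-likelihood test of edgeR over 13097 genes, Gad2 was 1.43 lower on the log2 scale at P5 (log2 fold change -1.43, SE 0.32), with an adjusted p of 0.0664 that missed the 0.05 used here. This test called 52 genes, 0.397% of those tested, and 0 of the 4 members, 1 of them (Gad2) at an unadjusted p under 0.05. With 1 library left out it called from 8 genes (without P2 control 1) to 155 (without P5 control 3). DESeq2 called 192 genes (1.47%) and Gad2 among them, with an adjusted p of 0.000274; over the alternatives Gad2 ran from -1.59 to -1.29 with an adjusted p from 0.000274 to 0.219. The Gad2 call depends on the tool, the block and the libraries: edgeR also called it in a fit with a term for replicate numbers, the replicate block (adjusted p = 0.0431) and without P5 control 3 (adjusted p = 0.0473).

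The other 3 members had intervals that covered 0. On simulated data the edgeR fit recovered 0% of 2-fold changes between ages, so a missing call says little about changes of that size. Gad1 was 36.2, 94.2, 12.5 and 12.8 CPM in P2 controls 1 to 4 and 155, 122, 16.2 and 32.2 CPM in P5 controls 1 to 4 (log2 fold change 1.07, SE 0.80, edgeR adjusted p = 0.704). At each age Gad1 was higher in the 2 controls with the larger part of clusters 7, 9 and 17 among amacrine cells (controls 1 and 2) than in the other two. Slc6a9 was 21.1, 31.3, 20.1 and 75.8 CPM in P2 controls and 84.9, 67.6, 73.6 and 105 CPM in P5 controls (1.07, SE 0.54, edgeR adjusted p = 0.581), and P2 control 4 lay among the P5 values. Slc32a1 averaged 69.2 ± 27.9 and 96.3 ± 41.0 CPM (SD, n = 4 each), with a log2 fold change of 0.39 (SE 0.49, edgeR adjusted p = 0.836). In bulk sums, fewer cells with a gene and less RNA per cell cannot be told apart.

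Within both sets of clusters Gad2 was lower at P5. In cluster 6 Gad2 averaged 604 ± 126 CPM in P2 controls and 215 ± 127 in P5 controls (SD, n = 4 each), and Slc6a9 averaged 49.9 ± 33.7 and 132 ± 44.4. In clusters 7, 9 and 17 together Gad2 averaged 403 ± 85.4 CPM in 4 P2 controls and 159 ± 15.9 in 2 P5 controls. Gad1 there averaged 87.3 ± 54.7 CPM at P2 and 232 ± 5.71 at P5.

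Gad2 was lower at P5 in cells outside the amacrine class too. In rods Gad2 fell by 2.22 on the log2 scale (SE 0.61, edgeR adjusted p = 0.0225), from 21.8 ± 9.02 to 4.84 ± 3.47 CPM, and it was the 1 member called there, where 13.2% of 14786 genes were called. In neurogenic cells, the cells between progenitor and neuron, Gad2 fell by 1.04 (SE 0.32, edgeR adjusted p = 0.0463) and was again the 1 member called, beside 9.27% of 13745 genes. In progenitors, where 17.5% of 14849 genes and 0 of the 4 members were called by edgeR (1 at an unadjusted p under 0.05), Gad2 was -0.99 (SE 0.40, adjusted p = 0.0911). Slc6a9 in rods was 34.8 ± 9.25 CPM at P2 and 55.5 ± 7.87 at P5 (0.60, SE 0.21, edgeR adjusted p = 0.0663). Whether the lower Gad2 in these types is their own RNA or free RNA of amacrine cells, whose share also differed between ages, was not tested.

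Genes that work beside the members in amacrine cells were read from lists chosen with earlier results of these data known. Of 20 tested amacrine transcription factor genes, 2 rose at P5 and 0 fell by edgeR, with 8 at an unadjusted p under 0.05. The 2 were Ebf1, by 1.90 (SE 0.34, edgeR adjusted p = 0.0164), and Ebf3, by 2.11 (SE 0.40, edgeR adjusted p = 0.0243). Both calls depend on the libraries: Ebf1 ran from 1.75 to 2.16 over 17 alternatives and was called in 11 of them, and Ebf3 from 1.74 to 2.37 and was called in 10. Both missed 0.05 without P2 control 1 (adjusted p = 0.0811 and 0.111), P2 control 2 (0.0577 and 0.0808), P2 control 3 (0.0764 and 0.128) or P5 control 4 (0.0517 and 0.0898), and Ebf3 also without P5 control 2 (0.0572). They also missed it with the compared groups alone (0.0647 and 0.102) and without the 2 libraries whose cell names give another group (0.133 and 0.151). Both encode early B-cell factors, and their list had a median of 0.14, against -0.00 over all genes tested. Of 4 GABA reuptake and breakdown genes 0 were called by edgeR (1 at an unadjusted p under 0.05), with Abat, which encodes GABA transaminase, at 0.38 (SE 0.22). Of the 7 glycine transport and metabolism genes 0 were called (0 at an unadjusted p under 0.05), and Slc6a5, which encodes the neuronal glycine transporter GlyT2, was at -0.67 (SE 0.59). Of the 10 vesicle release genes 0 were called (3 unadjusted). The unadjusted counts of the lists were not compared with that of all genes tested. Above 0 lay 9 of these 10 (median 0.54) and 6532 of all 13097 genes tested, and the list as a whole was not tested. Of 16 genes for other amacrine transmitters, such as the peptide gene Tac1 (1.28, SE 0.87), 4 were tested and 0 called (2 unadjusted). DESeq2 called 0 genes of these 4 lists and 5 of the transcription factor genes: Ebf1, Ebf3 and Neurod6 higher and Lhx9 and Tfap2a lower at P5.

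MEIS constructs gave no called difference in the transmitter share. At P2 the share averaged 96.9 ± 2.63% over 6 MEIS libraries and 95.05 ± 3.797% over 4 controls, a difference of 1.90 points (exact permutation p = 0.40). At P5 it averaged 77.6 ± 9.31% and 77.8 ± 5.40%, a difference of -0.13 points (exact permutation p = 0.971). The P5 difference moved with depth, to 4.09 points at 1000 UMIs, 7.25 at 4000 and 7.92 without thinning, and the P2 difference turned to -3.06 at 4000 UMIs. The difference between these 2 differences was -2.03 points (exact permutation p = 0.713). Without P2 MEIS2 2, the shallow library, the P2 difference was 2.90 points (exact permutation p = 0.0397, before adjustment).

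Single constructs spread on both sides of the controls. At P2 the share was 98.8 and 97.7% with MEIS1, 97.2 and 91.9% with MEIS2 and 99.3 and 96.8% with the combination. At P5 it was 84.1 and 69.6% with MEIS1, 87.8 and 63.6% with MEIS2 and 77.9 and 82.9% with the combination. The 6 differences from control ran from -2.07 points (P5 MEIS2) to 3.17 points (P2 MEIS1), with exact permutation p from 0.333 to 1, and 2 against 4 libraries cannot go below 0.0667. At P5 the 2 libraries of MEIS2 lay 24.1 points apart and those of MEIS1 14.5, both further than the highest and lowest control (11.3), and those of the combination 4.95.

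The percent of amacrine cells with neither transmitter was lower with MEIS at both ages, 31.9% against 39.2% at P2 (exact permutation p = 0.0952) and 49.6% against 55.7% at P5 (p = 0.143, exact), and neither difference passed the test. The GABAergic percent was 61.8% against 54.7% at P2 (exact permutation p = 0.105) and 35.3% against 31.5% at P5 (exact permutation p = 0.367). At P2 the highest control was P2 control 1 (62.3%) and the lowest MEIS library P2 combination 2 (54.6%). These are the 2 libraries whose cell names give another group. With groups taken from cell names the P2 ranges would not overlap, and this percent was not tested that way.

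**Figure D4:**
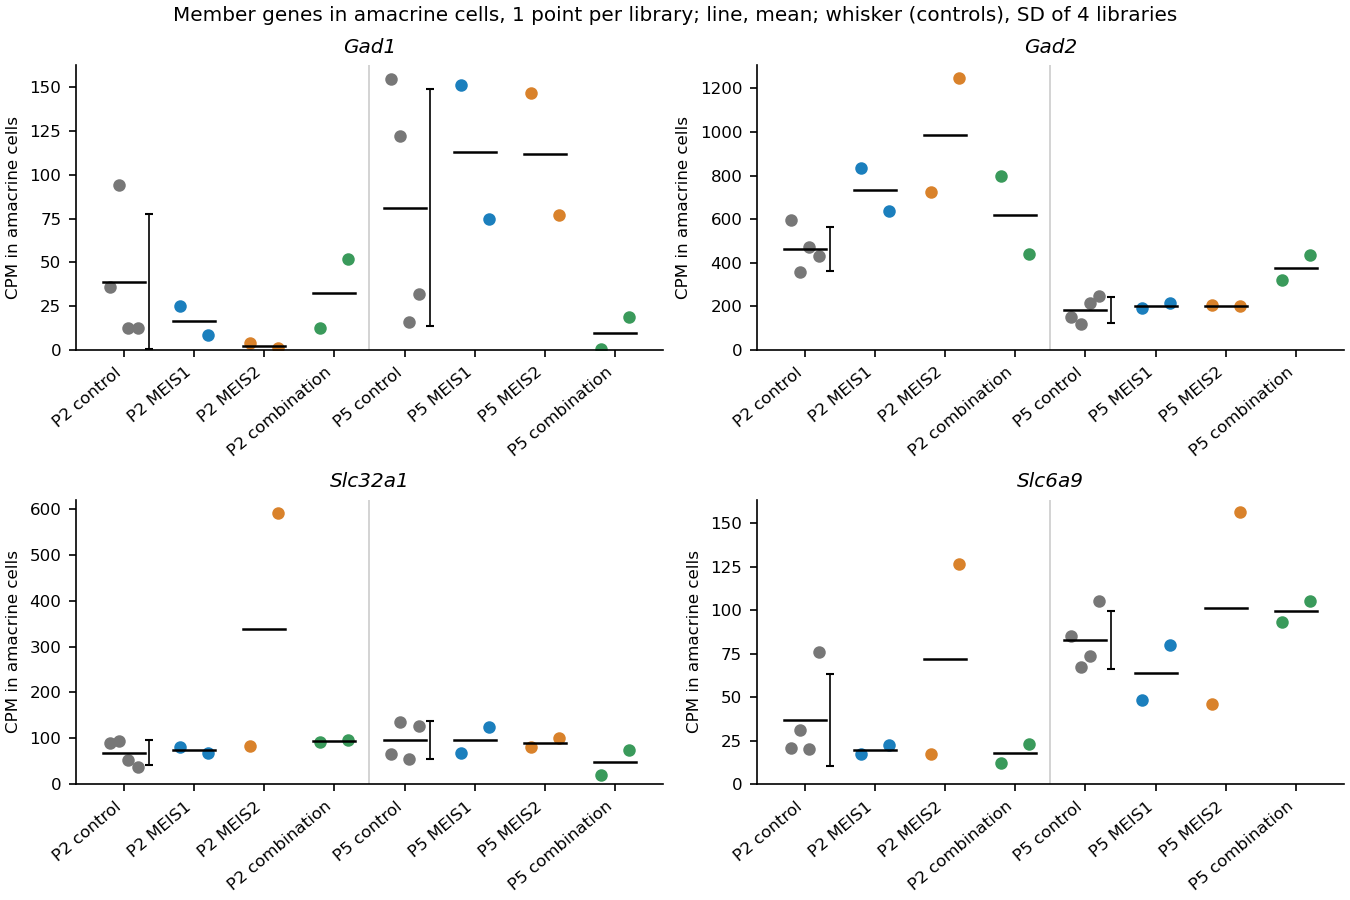
CPM of the 4 genes in summed amacrine cells; 1 point per library, a line at the group mean and, for the 4 controls of each age, a whisker of 1 SD. Gad2 of the P2 controls (356 to 598) lies above that of the P5 controls (119 to 246), and the highest Slc32a1 point (592) is P2 MEIS2 2.

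The levels in amacrine cells likewise gave 0 calls by edgeR for MEIS. On simulated data this fit recovered 1.5% of 2-fold MEIS changes at P2 and 5% at P5. A count of 0 calls thus says little about changes of that size. Against the controls of the same age edgeR called 0 of 13097 genes (0%) at P2, with 543 at an unadjusted p under 0.05, and 0 (0%) at P5, with 163; DESeq2 called 1 (0.00764%) and 0 (0%). Members were 0 of 4 in each by either tool, with Gad1 and Gad2 under 0.05 unadjusted at P2. Of the list genes 0 were called by either tool at either age, with 2 at an unadjusted p under 0.05 at P2 and 0 at P5. Gad2 ran from 439 to 1249 CPM (median 763) in the 6 P2 MEIS libraries and from 356 to 598 in the controls, with a log2 fold change of 0.64 (SE 0.29, edgeR adjusted p = 0.988). Of these 6 libraries, 5 lay above the highest control, P2 control 1 (598 CPM), and P2 combination 2 (439 CPM) lay below it. These are the 2 libraries whose cell names give another group. With groups taken from cell names the ranges of MEIS and control would not overlap at P2. At P5 Gad2 ran from 191 to 436 CPM (median 212) with MEIS and from 119 to 246 in controls (0.47, SE 0.29, edgeR adjusted p = 1.00), and both combination libraries, at 322 and 436 CPM, lay above every control.

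Gad1 was lower on average with MEIS at P2. It ran from 1.41 to 52.2 CPM (median 10.5) in the MEIS libraries and from 12.5 to 94.2 in controls (log2 fold change -1.69, SE 0.76, edgeR adjusted p = 0.988). Both MEIS2 libraries of P2, at 3.81 and 1.41 CPM, lay below every control (-3.58, SE 1.34, edgeR adjusted p = 0.559). These values rest on 17 UMIs and, in the shallow P2 MEIS2 2, on 1 UMI. Cluster 9, which was rich in Gad1, made up 1.85 and 8.23% of amacrine cells in these 2 libraries and 5.68 to 23.8% in P2 controls; its part in the Gad1 value was not tested. At P5 Gad1 was 0.356 (1 UMI) and 19.0 CPM in the combination (-3.08, SE 1.18, edgeR adjusted p = 0.824) and 74.5 to 151 CPM with either single construct. Clusters 7, 9 and 17, which hold Gad1, made up 12.4 and 20.6% of amacrine cells in these 2 combination libraries, 31.2 to 66.1% in the 4 single-construct libraries and 9.03 to 68.4% in P5 controls. P5 control 1, MEIS1 1 and MEIS2 1 had the largest parts of these clusters (68.4, 64.5 and 66.1%), the highest median percents of mitochondrial UMIs in amacrine cells of the P5 libraries (15.2, 14.3 and 11.5%) and the highest Gad1 (155, 151 and 147 CPM). The part of the clusters and of mitochondrial UMIs in the Gad1 values was not tested.

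Slc32a1 stood out in 1 library. It was 592 CPM in P2 MEIS2 2, 83.6 in P2 MEIS2 1 and 37.7 to 94.2 in P2 controls, so the log2 fold change of MEIS2 at P2 was 2.20 (SE 0.58, edgeR adjusted p = 0.271). Without P2 MEIS2 2 the difference of all MEIS libraries from control went from 0.89 (SE 0.46) to 0.24. Slc6a9 was also highest there among P2 libraries, at 127 CPM against 12.3 to 75.8 in the other 9. The same library was highest of the P2 libraries in other cell types too. It held 2376875 UMIs in all, so its Slc32a1 values in neurogenic cells and rods rest on few UMIs. Slc32a1 was 39.98 CPM in its progenitors (at most 3.18 in the other 9), 9.38 in its neurogenic cells (at most 3.20) and 10.4 in its rods (at most 5.06), and Slc6a9 was 46.1 in its progenitors (at most 3.62), 50.1 in its neurogenic cells (at most 8.74) and 79.9 in its rods (at most 50.4). Gad2 was highest there in these 4 types as well, at 1249 CPM in amacrine cells (at most 834 elsewhere) and 163 in progenitors (at most 49.3), while Gad1 was not highest in any of them. The fold change of Slc6a9 with MEIS was -0.44 (SE 0.49) at P2 and 0.08 (SE 0.49) at P5, and the sign turned without P2 control 4 (0.22 at P2) and without P5 MEIS2 2 (-0.26 at P5) or P5 MEIS1 2 (-0.01).

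Outside amacrine cells no member was called for MEIS. The test by edgeR called 0 of 14786 genes in rods at either age (0%, with 1618 unadjusted at P2 and 107 at P5), 2 (0.0135%) and 3 (0.0202%) of 14849 in progenitors at P2 and P5, 0 and 1 (0.00728%) of 13745 in neurogenic cells, and 1 (0.00748%) of 13365 in bipolar cells at P5. Gad2 differences in these types ran from -0.47 (SE 0.54) in P2 rods to 0.72 (SE 0.38) in P5 bipolar cells.

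Glycinergic and GABAergic cells of the same control libraries differed in many genes that the class rule did not use. Each of the 8 control libraries gave 10 to 90 glycinergic and 23 to 3637 GABAergic cells, whose counts were summed and compared with the library as a block. Of 5754 genes tested by edgeR, 271 were called (4.71%), 91 higher in glycinergic and 180 higher in GABAergic cells. Gad1, Gad2 and Slc6a9 chose the cells and are left out. The classes also differed in clusters: over all libraries, clusters 6 and 13 held 85.0% of glycinergic and 50.2% of GABAergic cells. The part of the clusters in these calls was not tested. Slc32a1 was 92.5 ± 49.6 CPM in glycinergic and 107 ± 47.2 in GABAergic cells (SD, n = 8 each; log2 fold change -0.26, SE 0.19, edgeR adjusted p = 0.630), and was higher in glycinergic cells in 3 of 8 libraries.

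Among amacrine transcription factor genes, 16 of 21 were tested, and 4 were higher in glycinergic and 5 higher in GABAergic cells. Prdm13 was 333 ± 134 CPM in glycinergic and 175 ± 124 in GABAergic cells, 1.16 higher on the log2 scale (SE 0.27, edgeR adjusted p = 0.0144). Tcf4 (0.84), Tfap2c (0.80) and Six3 (0.55) were the other 3 on that side, with edgeR adjusted p of 0.0330, 0.0327 and 0.0474. Meis2, the endogenous copy of one of the introduced genes, was 303 ± 288 CPM in glycinergic and 1686 ± 850 in GABAergic cells (-2.56, SE 0.36, edgeR adjusted p = 0.000283) and was lower in glycinergic cells in 8 of 8 control libraries. Lhx9 (-2.65), Tfap2b (-1.28), Tfap2a (-1.11) and Bhlhe22 (-0.77) were the other 4 on the GABAergic side. The list's median was 0.20, against 0.01 over all genes tested.

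The other lists had fewer tested genes. Of 4 GABA reuptake and breakdown genes Abat was tested; it was at 0.04 (SE 0.20) and was not called. Of the glycine genes Dld and Gcsh were tested, both shared by the glycine cleavage system and other enzymes, and neither Dld (-0.07, SE 0.18) nor Gcsh (-0.23, SE 0.30) was called. Of 6 tested vesicle release genes, Sv2a, which encodes a synaptic vesicle protein, was lower in glycinergic cells (-0.90, SE 0.23, edgeR adjusted p = 0.0250), and 0 of the 16 genes of other transmitters had enough counts to test.

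Apart from the lists, the genes most raised in glycinergic cells in all 8 libraries were Ppp1r17 (1.54), Ret (1.51), Chodl (1.42), Tgfb2 (1.36), Zfp423 (1.35), Nhlh1 (1.33), Ier2 (1.27), Ppp1r14a (1.24) and Cplx3 (1.23). Ret encodes a receptor tyrosine kinase, and Cplx3 a complexin that regulates vesicle fusion; Cplx3 stood at 1053 ± 653 CPM in glycinergic and 551 ± 510 in GABAergic cells. The genes most raised in GABAergic cells were Pcdh9 (-3.17), Ralyl (-3.11), Inpp4b (-3.00), AI593442 (-2.93), Adarb2 (-2.58), Zfhx3 (-2.53), Cacna2d2 (-2.45) and Galntl6 (-2.40), beside Lhx9 and Meis2. Pcdh9, a protocadherin gene, stood at 83.5 ± 132 CPM in glycinergic and 773 ± 692 in GABAergic cells. The number of calls depends on the design: it was 0 (274 unadjusted) without the library block, and 156 without P5 control 1.

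More genes were called when Gad2 was set aside. In this comparison, chosen after Gad2 had been seen in both classes, GABAergic cells were those with Gad1 and no Slc6a9, glycinergic cells those with Slc6a9 and no Gad1, and 6 control libraries had enough cells. It called 1346 of 5083 genes (26.5%), 640 higher in glycinergic and 706 higher in GABAergic cells. In the same 6 libraries the rule with Gad1 or Gad2, also run after seeing the data, called 306 of 7858 genes; the 2 rules differ in both classes, since cells with Slc6a9 and Gad2 are glycinergic under the Gad1 rule. Ebf1 was 758 ± 670 CPM in glycinergic and 19.8 ± 16.9 in GABAergic cells (log2 fold change 4.77, SE 0.43), Ebf3 was 4.55 higher (SE 0.32), Prdm13 3.49 (SE 0.34), Neurod2 3.21 (SE 0.37) and Tcf4 2.99 (SE 0.29). The GABA transporter gene Slc6a11 (-3.14, SE 0.35) and Meis2 (-3.03, SE 0.30) were lower in glycinergic cells, while Abat was higher (0.68, SE 0.23). The edgeR adjusted p of the genes named here ran up to 0.0370. Of them, Ebf1, Ebf3, Prdm13, Neurod2, Tcf4 and Meis2 also differed between the sets of clusters above, which come from the same counts. Gad2, which took no part in this rule, was 361 ± 214 CPM in glycinergic and 328 ± 119 in GABAergic cells (0.03, SE 0.24, edgeR adjusted p = 0.948; SD, n = 6 each), and Slc32a1 was at -0.62 (SE 0.28, adjusted p = 0.120).

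**Figure D5:**
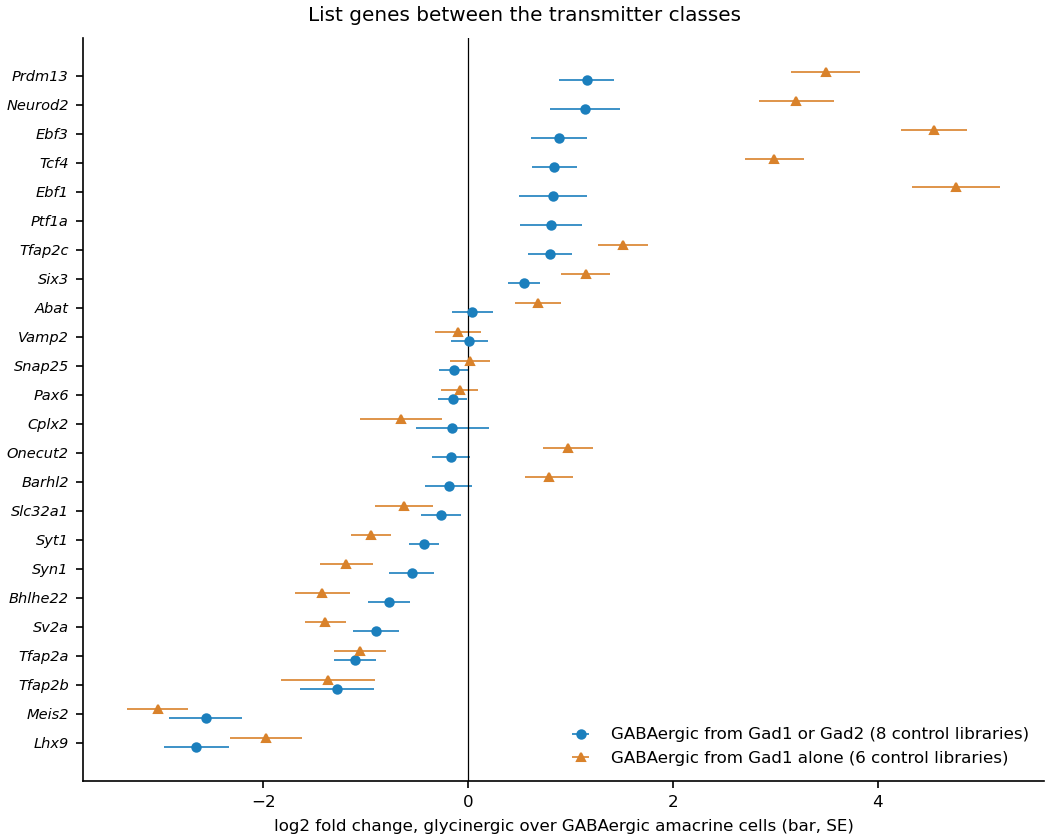
Log2 fold change of list genes and Slc32a1 between glycinergic and GABAergic amacrine cells of control libraries, with bars of 1 SE; circles use Gad1 or Gad2 to call a cell GABAergic (8 libraries), triangles Gad1 alone (6 libraries). Meis2 and Lhx9 lie left of 0 under both rules, and the triangles of Ebf1 (4.77) and Ebf3 (4.55) lie furthest to the right.

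Across single amacrine cells of the 12 libraries with at least 200 of them, no gene followed a member closely. The mean Pearson r within libraries, over log2 counts per 10000 UMIs, was highest for Dscam with Gad1 (0.39), Cplx3 with Slc6a9 (0.31), Nrxn3 with Gad2 (0.28) and Tfap2a with Slc32a1 (0.18). The next genes were Dlgap1, Inpp4b, Zfhx3 and Ncam2 for Gad1, Ebf1, Tcf4, Prdm13 and Nfib for Slc6a9, Nhlh2, Anks1b, Tkt and Nnat for Gad2, and Lrrn3, Rasgef1b, Frmd4a and Ptprk for Slc32a1. Cells share their library and its depth, the counts are sparse, and these values are given only as the order they make. Over the authors' 9 cell types, pooled levels were closest for Ano4, Syt6 and Rph3a with Gad1 (r from 0.98 to 0.99), Tfap2c, Ptf1a and Lhx9 with Gad2 (0.96 to 0.97), Syt6, Kcnip1 and Cacng3 with Slc32a1 (0.99) and Gm26883, Ppm1a and Fbxo33 with Slc6a9 (0.91 to 0.95).

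Gad1 overlaps an annotated antisense gene, Gad1os, at chr2:70489940-70563357. Gad1os had 178 UMIs in amacrine cells, against 4104 of Gad1, but 279 in progenitors, against 175 of Gad1. The 2 genes overlap at their 5′ ends, whereas UMIs were read at 3′ ends. The strand setting of the authors' counting is not given in the sources used here, so any reads inside the overlap cannot be told apart.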

How the data were processed

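The authors deposited UMI counts by gene and cell without normalization; for 79009 of 79009 cells the total they list is the sum of these counts. Each cell also has a deposited cell type, cluster and percent of mitochondrial UMIs. Cell Ranger, Seurat 5 and mm10 are named in the submitters' processing notes, and the labels add a GFP sequence to the genome; the Cell Ranger version and the filters on cells are not given in the sources used here. Members and gene lists were chosen with earlier results of these data known, and 1 list gene is not reported here.

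Counts were summed per library and cell type (at least 20 cells), filtered with filterByExpr, scaled by TMM and tested with edgeR 4.0.16 (R 4.3.3, quasi-likelihood, two-sided, 1 mean for each of 8 groups, all libraries in 1 fit), with Benjamini-Hochberg adjustment over all genes and calls under 0.05; DESeq2 1.42.0 was an alternative. Amacrine cells with at least 2000 UMIs were thinned to 2000 (12449 kept, 1107 left out; P2 MEIS2 2 kept 101 of 401), and class shares were compared by exact permutation over libraries in Python 3.11.15 with scipy 1.17.1. Classes were summed per control library with at least 10 cells of each class. The scripts were tested on simulated data. The amacrine fit recovered 0% of 2-fold changes between ages, 1.5% for MEIS at P2 and 5% for MEIS at P5. For 4-fold changes it recovered 70.5, 74.5 and 68.5%. The class fit recovered 92.5% of 2-fold changes. Scrublet (scanpy 1.11.5) marked 3.80% of all cells as doublets, which stayed in except in an alternative. Among amacrine cells it marked 1295 of 13556, of which 1044 were among the 6115 of P2 control 1. The pooled class counts, the cells with both classes included, and the odds ratios of gene pairs were made with these cells in. It marked under 0.5% of cells in 7 of 20 libraries (0 of 4712 in P2 control 2 and 1 of 6292 in P5 control 1), so the alternative without doublets is incomplete. Clusters and cell types are those of the authors.

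The 4 members are named in every comparison. In the class comparison the genes named are the list genes and up to 10 per direction by absolute log2 fold change, among genes called, averaging 4 or more in log2 CPM and on the same side in all 8 libraries; for likeness, the 5 genes of highest mean r per member, and 3 over cell types. Same-numbered P2 and P5 controls gave correlations of deviations of 0.358, 0.385, 0.355 and 0.098 for numbers 1 to 4. Of the controls, 2 of 4 at P2 and 1 of 4 at P5 correlated best with their own number. The numbers were not taken as pairs, and a fit with a term for them is given as an alternative. Whether libraries of 1 number share a batch was not tested.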

Additional observations from a re-analysis of the deposited data

Results flagged for a closer look

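Of 28 sets of 4 to 10 library values that were checked, 6 had a library whose gap to its nearest neighbour was large against the range of its set. For a single set chance gives about 1 in 20. Several sets share the same cells, so the 6 are not independent and cannot be held against that rate. In P2 controls the GABAergic share of control 4 (89.4%) lay below the others, its glycinergic percent (6.18%) above them, and the GABAergic percent of control 1 (62.3%) above the others. In P5 controls the GABAergic share of control 4 (69.7%) lay below the other 3, on 23 GABAergic and 10 glycinergic cells. In rods of P5 control 1, Gad1 (11.6 CPM) and Slc32a1 (6.75 CPM) lay above the other 3 P5 controls. That library had the most amacrine cells of the P5 controls, 13.8% of its cells, and the part of amacrine RNA in its rods was not tested.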

How the results depend on the processing

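The lower GABAergic share at P5 in controls (-17.3 points) kept its direction under all alternatives run. It was -19.2 to -14.6 with 1 library left out and -10.8 in cells with Slc32a1 (3 P5 controls). Its exact permutation p was 0.0286 before adjustment and 0.143 after Benjamini-Hochberg adjustment over the 20 class share tests, so the main result missed 0.05 once adjusted. Even before adjustment, p missed 0.05 with Gad1 alone (-6.85), within clusters 7, 9 and 17 (-2.78) and in the replicate block (-17.3, exact permutation p = 0.125, the smallest 4 pairs allow). The cause was not tested. The replicate block uses numbers that were not taken as pairs: 2 of 4 P2 and 1 of 4 P5 controls correlated best with their own number, and between groups of 1 age same-number correlations were -0.04 to 0.56 (P2) and -0.20 to 0.60 (P5). The MEIS difference at P2 (1.90) turned to -3.06 at 4000 UMIs, -7.90 with Gad1 alone, -0.49 in cells with Slc32a1, -0.0281 in the block and -1.50 in clusters 7, 9 and 17, and ran from 0.0200 to 2.90 with 1 library left out. At P5 (-0.13) it turned to 4.09 at 1000 UMIs, 7.25 at 4000, 7.92 unthinned, 2.46 with Gad2 alone, 0.57 in cells with Slc32a1, 0.28 without doublets, 0.26 in clusters 6 and 13 and 2.16 in clusters 7, 9 and 17, was -3.05 in the block and ran from -2.82 to 2.67. The difference of the 2 (-2.03) turned to 0.95, 10.3 and 5.99 at 1000 UMIs, 4000 and unthinned, 4.25 and 0.19 with Gad1 or Gad2 alone, 1.06 in cells with Slc32a1 and 3.66 in clusters 7, 9 and 17, and ran from -4.72 to 0.77.

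Genes called at P5 against P2 (52) were 192 by DESeq2, 7 with the compared groups alone, 88 in the replicate block, which called Gad2 (adjusted p = 0.0431), and 4 without the 2 libraries whose cell names give another group. With 1 library left out they ran from 8 (P2 control 1) to 155 (P5 control 3), with 15 without P2 control 3, 28 without P2 control 4, 33 without P5 control 2 and 29 without P5 control 4; Gad2 was called without P5 control 3 (adjusted p = 0.0473). MEIS calls at P2 (0) were 1 by DESeq2 and 2 with groups taken from cell names, and 0 to 0 with 1 library left out, as at P5. Calls between classes (271) were 773 without a filter, 472 over all libraries, 0 without the library block, 130 at 1000 UMIs, 160 with at least 2 UMIs, 179 in P5 alone and 1346 with Gad1 alone, and ran from 156 to 278 with 1 library left out. Over these alternatives 464 values of the named class genes stayed on their side of the threshold and 109 missed it, most often for Six3, Bhlhe22, Tfap2c, Tcf4 and Tfap2b. Of the member fold changes 214 kept their direction and call, 3 passed the threshold (all Gad2) and 3 changed sign (all Slc6a9): the MEIS value at P2 (-0.44) ran from -1.10 to 0.22 with 1 library left out, and that at P5 (0.08) from -0.26 to 0.28. Beyond the age share, the age calls and Gad2 above, the block changed no call, and a minimum of 50 cells left every library in. Depth limits single cells: at 2000 UMIs 37.5% of the pooled amacrine cells showed no transmitter gene of the 3 that define the classes. The mean was 43.4% over the 20 libraries and 55.7% over the 4 P5 controls.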
